A study of Mus musculus with 9 samples.

Results

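EPRSTOPE is the transcript of the long noncoding RNA EPR (gene symbol BC030870) with a stop codon in place of the second codon of its small open reading frame, so that the RNA can be made without its peptide, EPRp. The comparison described here sets 3 RNA-Seq libraries of NMuMG cells that stably overexpressed EPRSTOPE (numbers 209, 210 and 211) against 3 libraries of mock cells (numbers 203, 204 and 205), which is 6 of the 9 libraries of the series. The libraries were chosen by their genotype labels, and none was left out. NMuMG is an immortalized epithelial cell line from mouse mammary gland. All groups were transfected with a pBICEP-based vector and kept as G418-resistant pools rather than as single clones. Mock cells carried the vector without insert. The vector drives its insert from a CMV promoter, and the cells grew in DMEM with 10% serum and were not treated with TGF-β. The remaining 3 libraries (206, 207 and 208) came from cells overexpressing the unmutated EPR, and they are used to show where the mutant differed from it. The methods call the libraries biological triplicates and the study speaks of independent pools of EPRSTOPE transfectants, but no label ties a library to a pool, so the p-values measure the spread between these libraries only. The comparison asks what the RNA does to the transcriptome when the peptide is not translated.

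Long noncoding RNAs can act on transcription in the nucleus, on the stability of messenger RNAs or as a source of small peptides, and a stop codon just after the start codon is a common way to keep the first roles while removing the last. In mammary epithelium, sheets of cells are held together by adherens junctions built on the cadherin Cdh1 and sealed by tight junctions. Loss of these junctions with a gain of matrix and contractile genes is the epithelial to mesenchymal transition (EMT), which TGF-β drives in NMuMG cells. Cell division is braked by inhibitors of cyclin-dependent kinases, among them Cdkn1a, a target of p53.

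The open reading frame is shown because the mutated codon is what separates EPRSTOPE from EPR. In the annotated transcript of 1507 nt (Gencode M21) it runs from position 345 to position 560, counted from the 5′ end, and holds 71 codons before the stop. Capitals mark the second codon, here in its unmutated form; the files do not hold reads, so the changed bases were not read from the libraries.
EPR open reading frame: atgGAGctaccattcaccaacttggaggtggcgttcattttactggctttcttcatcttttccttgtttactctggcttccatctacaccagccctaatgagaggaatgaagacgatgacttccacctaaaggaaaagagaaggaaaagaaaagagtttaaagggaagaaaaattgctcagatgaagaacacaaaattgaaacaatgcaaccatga

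EPR RNA itself was raised in the EPRSTOPE libraries. It had 0, 0 and 2 estimated counts in the mock libraries and 28, 39 and 33 in the EPRSTOPE libraries, so the groups did not overlap. In counts per 1000000 counts of the library after TMM scaling (CPM), the EPRSTOPE libraries stood at 4.73, 4.15 and 3.79, with 95% Poisson intervals from 2.61 to 6.84. The fold change rests on the 2 mock counts. In edgeR it came to 5.65 on the log2 scale, with a standard error (SE) of 0.45 (adjusted p = 6.0e-07), and the pooled counts gave a ratio of 58.9-fold with a 95% counting interval from 15.9 to 493. In the exact two-sided permutation test over the libraries p was 0.1, the smallest that 3 libraries against 3 allow. The EPR libraries held more of the RNA, 23.6, 26.9 and 23.8 CPM, and EPRSTOPE was lower than EPR by a log2 difference of -2.56 (adjusted p = 2.0e-06). The 2 overexpressing groups were therefore not matched in the dose of the RNA, and counts assigned to the annotated transcript do not separate vector-made from endogenous RNA.

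The libraries held 5972457 to 11876435 estimated counts in mock and 6116643 to 9783873 in EPRSTOPE cells. Before TMM scaling, 3 counts correspond to 0.253 to 0.502 per 1000000 counts in mock and 0.307 to 0.4905 in EPRSTOPE libraries. These floors and the intervals cover counting error only. Spearman's correlation over genes was 0.983 to 0.989 between mock libraries, 0.978 to 0.979 between EPRSTOPE libraries and 0.897 to 0.908 between the groups. Mitochondrial genes took 1.18 to 1.39% of the counts in mock and 1.62 to 1.68% in EPRSTOPE libraries, with no overlap. As bulk RNA was measured, fewer cells of a type and less RNA per cell cannot be told apart.

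Markers of the line were partly absent. Of 16 luminal mammary markers, 7 passed the filter (at least 1 CPM in at least 3 of the 9 libraries), and *Esr1*, *Csn2*, *Wap* and *Lalba* had no count in any of the 6 libraries. *Epcam*, a general epithelial surface marker, had no count in mock and a mean of 0.109 CPM in EPRSTOPE cells. The claudin genes *Cldn3*, *Cldn4* and *Cldn7* and the epithelial splicing factor gene *Esrp1* had no count in mock or EPRSTOPE libraries. The keratins of simple epithelia, *Krt8*, *Krt18* and *Krt19*, were present in every library. Among markers of other cell types, 4 of 10 myoepithelial, 1 of 10 fibroblast, 2 of 8 endothelial, 2 of 8 leukocyte and 2 of 7 adipocyte genes passed the filter. *Trp63*, *Adgre1*, *Adipoq* and *Lep*, which define some of these types, had no count.

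Over the transcriptome, 15370 of 52459 gene symbols passed the filter. Calls required that the adjusted p stay under 0.01 and that the fold change exceed 0.5 on the log2 scale. By this rule 2399 genes rose (15.6%) and 1903 fell (12.4%) in EPRSTOPE cells, which is 28% of those tested. Counts of called members in the gene lists below are to be set beside these shares. The lists were chosen with earlier results of these data known, so the counts describe their direction and are no independent evidence of it. In 8667 genes (56.4%) the 3 EPRSTOPE and the 3 mock libraries did not overlap, and 4300 of the 4302 changed genes were among them. Large changes were common. A log2 fold change beyond 3 was reached by 371 genes that rose and 295 that fell, and beyond 5 by 167 and 143. The median log2 fold change of all genes was -0.04. Of 12191 protein-coding genes 32.5% changed, against 15.3% of 620 lincRNAs and 13.3% of 581 pseudogenes.

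**Figure D1:**
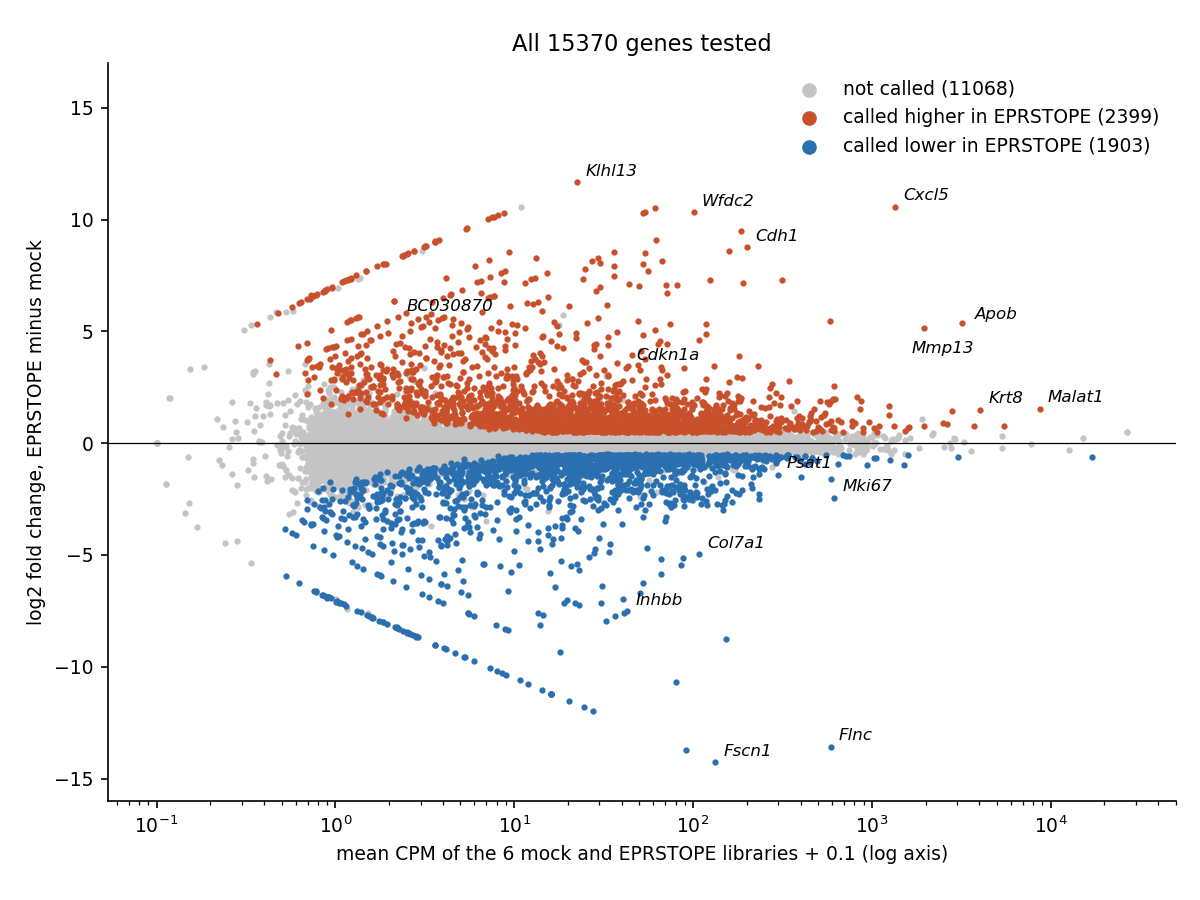
Log2 fold change of EPRSTOPE minus mock (vertical axis) against the mean CPM of the 6 libraries plus 0.1 (horizontal axis, log scale), 1 point per gene for the 15370 genes tested. Orange points are the 2399 genes that rose, blue points the 1903 that fell; the straight rows of points at both edges are genes with no count in one group, whose fitted fold changes are not bounds.

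Some genes went from no or almost no RNA to a clear level. Under 1 CPM in mock and at least 10 CPM in EPRSTOPE cells was the pattern of 91 genes that rose, and the opposite that of 70 that fell. *Cxcl5*, a chemokine that attracts neutrophils (ENSMUSG00000029371.7, GRCm38 chromosome 5, 90759360 to 90761624, plus strand), stood at 1.86, 2.63 and 0.973 CPM in the mock libraries and at 2764, 2577 and 2776 CPM in the EPRSTOPE libraries. The groups lay far apart, with a log2 fold change of 10.58 (SE 0.19, adjusted p = 2.4e-12). *Klhl13*, an adaptor of a ubiquitin ligase (ENSMUSG00000036782.13, GRCm38 chromosome X, 23219271 to 23365082, minus strand), had no count in mock and 45.1, 45.6 and 43.9 CPM in the EPRSTOPE libraries, which is at least 132-fold higher when mock is set to the floor of 3 counts per library. *Wfdc2*, a secreted protease inhibitor of epithelia, went from 0, 0.2103 and 0.162 to 206, 200.3 and 197 CPM. Each of these genes was under 3 CPM in every mock library and high in every EPRSTOPE library.

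Others of the 10 protein-coding genes with the largest rise (at least 10 CPM in EPRSTOPE, no overlap) rested on 2 mock counts or none. *Dnajc22*, a membrane protein with a J domain, rose by 1734-fold with a 95% counting interval from 479.6 to 14325 from pooled counts, *Slpi*, a leukocyte protease inhibitor, by 1527-fold with a 95% counting interval from 422 to 12618 and *Pdzrn3*, a ubiquitin ligase, by 1471-fold with a 95% counting interval from 407 to 12151. *Cdhr5*, a cadherin of the brush border, had no mock count and 17.9, 16.3 and 17.6 CPM in the EPRSTOPE libraries, at least 50.6-fold higher. *Serpinb6c* was at least 46.96-fold, the acyl-CoA thioesterase gene *Acot1* at least 44.4-fold and the transporter gene *Slc22a18* at least 43.7-fold higher. *Serpinb6c* and *Acot1* belong to families of closely related genes, among which the quantification may have split reads. In all, 9 genes had no mock count and a mean of at least 10 CPM in EPRSTOPE cells. They also included the complement gene *C9* (at least 41.3-fold), the carboxylesterase gene *Ces2e* (at least 31.5-fold) and the protocadherin gene *Pcdhac2* (at least 30.8-fold). The remaining one, *Gm10221*, had 54.4, 10.5 and 0 CPM in the EPRSTOPE libraries and did not pass the test (adjusted p = 0.012).

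RNA of other genes disappeared. *Fscn1* encodes fascin, which bundles actin in protrusions of motile cells (ENSMUSG00000029581.14, GRCm38 chromosome 5, 142960343 to 142973185, plus strand), and it stood at 246, 289 and 261 CPM in mock and had no count in any EPRSTOPE library, at least 680.4-fold lower. *Flnc*, a filamin of muscle that crosslinks actin (ENSMUSG00000068699.12, GRCm38 chromosome 6, 29433256 to 29461883, plus strand), stood at 1178, 1211 and 1144 CPM in mock and at 0.338, 0 and 0 CPM in EPRSTOPE libraries, where 2 counts remained. *Cxcl12*, the ligand of Cxcr4, stood at 53.2, 49.6 and 44.1 CPM in mock and had no count in EPRSTOPE libraries, at least 126-fold lower. All 3 genes were well above the floor in every mock library and at or under it in every EPRSTOPE library.

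Genes with no count in EPRSTOPE libraries and at least 10 CPM in mock numbered 21. Among the 10 with the largest fall were also *Gm10184* (at least 471-fold), the heparan sulfate sulfotransferase gene *Hs6st2* (at least 141-fold), *Olfml2b* (at least 104-fold), the scavenger receptor gene *Scarf2* (at least 82.3-fold), the tyrosine catabolism gene *Fah* (at least 72.9-fold) and *Armcx3*, a mitochondrial membrane protein gene (at least 61.01-fold). *Akap12*, a scaffold of protein kinases, kept 2 counts, a fall of 1913-fold with a 95% counting interval from 529 to 15801. *Prrx2*, a homeobox factor of mesenchyme, stood at 15.01, 12.6 and 15.9 CPM in mock and had no count in EPRSTOPE libraries. The ribosomal protein pseudogenes *Rpl35a-ps2*, *Rpl35a-ps3*, *Rpl35a-ps4* and *Rpl35a-ps6* and *Gm10243* had the same values as each other, 24.8, 34.4 and 36.9 CPM in mock and none in EPRSTOPE libraries; near-identical copies share reads, so which copy was lost is uncertain.

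**Figure D2:**
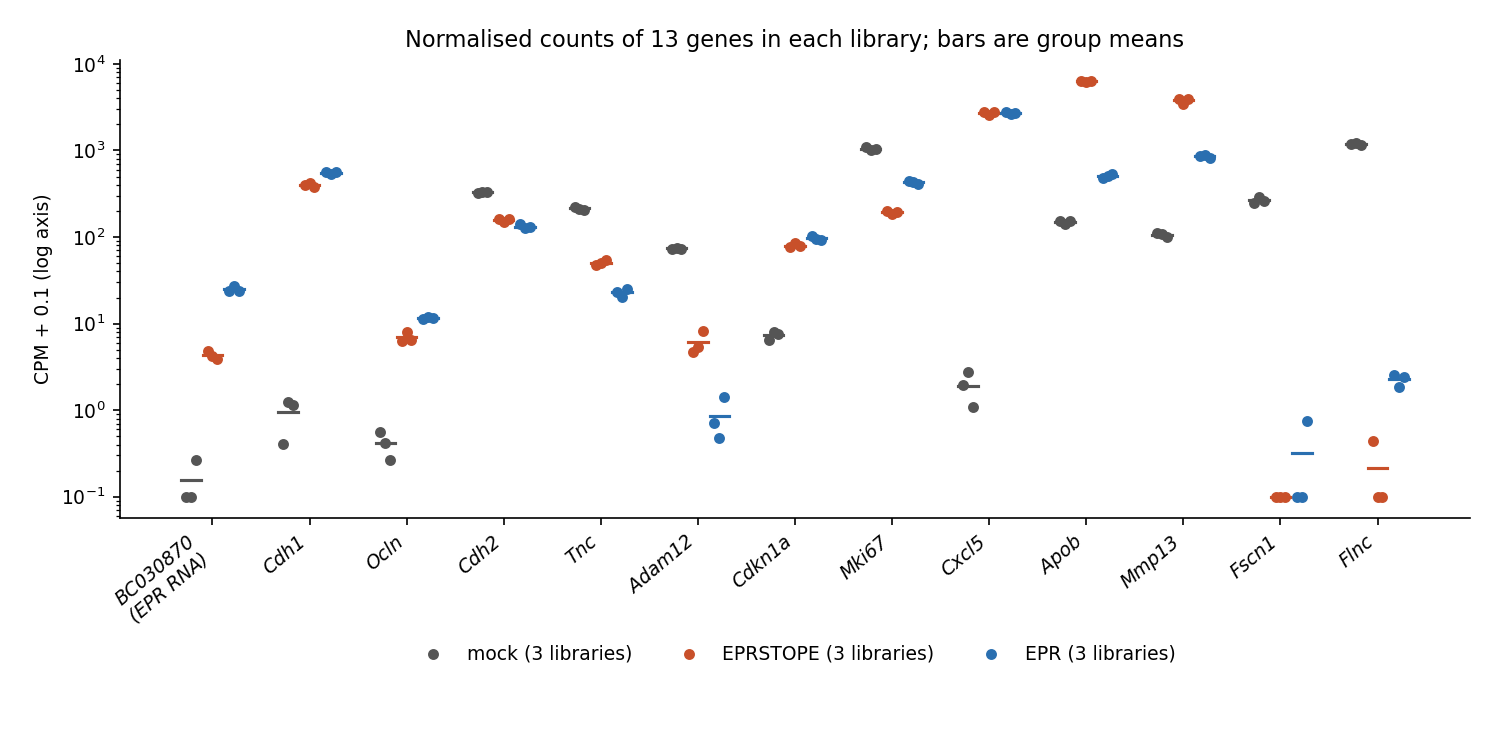
Normalised counts (CPM plus 0.1, log axis) of 13 genes in each of the 9 libraries, with points for libraries and bars for group means; grey is mock, orange EPRSTOPE and blue EPR. *Cdh1*, *Cxcl5*, *Apob* and *Mmp13* lie higher in all EPRSTOPE than in all mock libraries, *Fscn1* and *Flnc* fall to the lower edge, and EPR RNA, *Apob* and *Mmp13* differ between EPRSTOPE and EPR.

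The changed genes with the highest CPM, a scale that is not per length, included *Cxcl5* and *Flnc*, described above. *Apob*, the apolipoprotein of lipid particles made by liver and gut, stood at 155, 141 and 154 CPM in mock and at 6378, 6112 and 6355 CPM in EPRSTOPE libraries, a log2 fold change of 5.39 (SE 0.06, adjusted p = 1.2e-13). *Mmp13*, a collagenase, went from 112, 108 and 99.2 to 3971, 3429 and 3980.4 CPM (log2 fold change 5.16). The groups were separated widely for both. In EPR libraries the means were 506 ± 23.9 CPM for *Apob* and 853 ± 34.4 CPM for *Mmp13*, and EPRSTOPE was higher than EPR by log2 differences of 3.63 (adjusted p = 2.3e-12) and 2.15 (adjusted p = 1.5e-09). Other abundant genes that rose were the nuclear RNA *Malat1* (log2 fold change 1.55), *Krt8* (1.503), *Krt18* (1.44), the membrane protein gene *Emp1* (1.66), the β-catenin gene *Ctnnb1* (1.24), the ion cotransporter gene *Slc12a2* (1.89) and *Timp3* (2.07), an inhibitor of metalloproteases. Abundant genes that fell were *Flnc*, *Mki67*, *Top2a* (-1.59), the tubulin gene *Tuba1a* (-1.52), the serine synthesis gene *Psat1* (-1.401), the linker histone genes *Hist1h1e* (-2.25) and *Hist1h1c* (-2.001), the RNA-binding protein gene *Bicc1* (-1.13) and the microtubule gene *Map1b* (-1.37). The pseudogene *Gm8730* (-2.504) was also among them, and its value is uncertain if it shares reads with a close copy.

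Adherens junction genes rose more often than they fell. Of 20 genes listed, 13 passed the filter, and 7 of them rose and 2 fell (69.2% called, against 28% of all genes). The median log2 fold change of the 13 was 0.51. Of the 12 with at least 1 CPM in mock 6 rose and 2 fell. *Cdh1* (E-cadherin, ENSMUSG00000000303.12, GRCm38 chromosome 8, 106603351 to 106670246, plus strand) stood at 0.309, 1.16 and 1.05 CPM in the mock libraries and at 399, 426 and 380.3 CPM in the EPRSTOPE libraries. Mock libraries were near the floor of 3 counts and EPRSTOPE libraries far above it, with a log2 fold change of 8.76 (SE 0.16, adjusted p = 2.6e-12). *Ctnnb1*, whose product β-catenin binds the tail of cadherins, stood at 758, 745 and 723 CPM in mock and at 1795, 1730.2 and 1734 CPM in EPRSTOPE libraries, again without overlap. The p120-catenin gene *Ctnnd1* (0.51), the vinculin gene *Vcl* (0.85), *Cdh6* (0.64), *Nectin1* (1.63) and *Plekha7* (1.24) rose as well, while *Ctnna1* had a log2 fold change of -0.04 and did not pass. The members that fell were *Cdh2* (N-cadherin), at 327, 333 and 328 CPM in mock and 163, 149 and 162 CPM in EPRSTOPE libraries (log2 fold change -1.06), and *Nectin3* (-1.58). With counts rebuilt from the TPM values, 3 members rose, and *Ctnnb1* (log2 fold change 0.744) and *Nectin1* (0.4, adjusted p = 0.67) did not pass. *Nectin1* did not pass without EPRSTOPE library 210 either (1.49).

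Tight junction genes did not move in one direction. Of 34 genes for tight junctions and apical polarity, 20 passed the filter, 4 rose and 6 fell (median -0.16). These calls make up 50% of the genes tested, against 28% of all genes. Of the 18 with at least 1 CPM in mock 3 rose and 6 fell. *Ocln*, occludin, stood at 0.464, 0.315 and 0.162 CPM in mock and 6.25, 7.99 and 6.31 CPM in EPRSTOPE libraries, with no overlap and a log2 fold change of 4.52 (standard error 0.31). *Tjp1* (ZO-1) went from 276, 269.8 and 268 to 493, 499 and 511 CPM (0.88), and *F11r* (0.79) and *Cgnl1* (0.75) also rose. Those that fell included the atypical protein kinase C genes *Prkci* (-0.55) and *Prkcz* (-0.71), *Crb3* (-3.09), *Cldn15* (-2.38) and *Jam3* (-2.704). Cingulin (*Cgn*) had a log2 fold change of 0.09 (adjusted p = 0.44). EPRSTOPE was also tested directly against EPR, where 6.35% of all genes were called higher and 6.86% lower in EPRSTOPE. In this test 8 tight junction genes were called lower in EPRSTOPE and none was called higher. Among the 8 were *Cgn* (-0.91), *Cgnl1* (-0.94) and *Patj* (-0.98). With counts rebuilt from TPM 2 members of the list fell, and *Tjp1* (0.747) and *Crb3* (-2.41) did not pass.

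In the desmosome list 3 of 8 tested genes rose (37.5%, against 15.6% of all genes), namely *Pkp1* (2.02), *Dsp* (1.24) and *Perp* (0.99), and none fell. In the hemidesmosome list 4 of 8 rose (50%), the laminin receptor subunit gene *Itga6* (1.299), *Plec* (0.92), *Cd151* (0.62) and *Lamb3* (0.54). *Itgb4*, the partner of Itga6 in hemidesmosomes, stood at 2.78, 1.26 and 2.03 CPM in mock and 2.196, 3.195 and 2.07 CPM in EPRSTOPE libraries, which overlapped (adjusted p = 0.25). In EPR libraries its mean was 347 ± 17.98 CPM, and the difference of EPRSTOPE from EPR was -7.09 on the log2 scale (adjusted p = 1.3e-10).

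Of 16 keratin genes 10 passed the filter, 4 of them only through the overexpressing cells, 4 rose and none fell; of the 6 with at least 1 CPM in mock 2 rose. *Krt8* stood at 1981, 2224 and 2097 CPM in mock and 5948, 6017 and 5916 CPM in EPRSTOPE libraries, and its partner *Krt18* at 1434, 1632 and 1496 and 4246, 4144 and 3988 CPM. Both were higher in every EPRSTOPE library. *Krt16* went from 0.309, 0.421 and 0.324 to 15.4, 17.5 and 14.7 CPM, and *Krt6a*, with no mock count, reached 7.26, 8.201 and 6.77 CPM. Of the tested keratin genes 5 lie on chromosome 15, many of whose genes were higher in EPRSTOPE cells, and 1 of 5 elsewhere rose.

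Epithelial secreted and surface genes included large rises. 7 of 10 tested genes of this list rose and 1 fell, and 4 of the 10 had under 1 CPM in mock, so they passed the filter only through the overexpressing cells. Lipocalin 2 (*Lcn2*) went from 0.464, 0.526 and 0.406 to 67.1, 52.3 and 61.03 CPM, and clusterin (*Clu*) from 55.4, 58.2 and 48.3 to 249, 259 and 263 CPM. No library of one group reached the other in either gene. *Clu* had a mean of 995 ± 13.96 CPM in EPR libraries and was lower in EPRSTOPE libraries (log2 difference -1.95, adjusted p = 2.2e-09). *Muc1* fell (-0.69). Of the epithelial transcription and splicing factors 6 of 13 rose, among them *Elf3* (2.32), *Ehf* (3.34), *Klf4* (1.32) and *Grhl1* (0.96), and 3 fell, among them *Foxa1* (lower by 95.9-fold with a 95% counting interval from 26.2 to 797) and *Tfap2a* (-2.101). *Cdx2*, a factor of intestinal epithelium, stood at 0, 0 and 0.162 CPM in mock and at 27.9, 29.7 and 21 CPM in EPRSTOPE libraries, a ratio of pooled counts of 369-fold with a 95% counting interval from 102 to 3056. With counts rebuilt from TPM the calls of *Muc1* (log2 fold change -0.84), *Ehf* (1.98) and *Tfap2a* (-1.35) were lost. Of the 6 surface genes with at least 1 CPM in mock 4 rose and 1 fell, and of 11 such transcription and splicing factors 5 rose and 3 fell.

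Mesenchymal markers moved in both directions. Of 20 tested, 6 rose, 7 fell and 7 did not pass (65% called, against 28% of all genes). Of the 18 with at least 1 CPM in mock 4 rose and 7 fell. The summed level of the list was 98.9 to 107% of the mock mean in EPRSTOPE libraries. *Tnc*, the matrix protein tenascin C, stood at 225, 209.9 and 206 CPM in mock and 46.96, 49.5 and 54.3 CPM in EPRSTOPE libraries (log2 fold change -2.09, standard error 0.08). *Adam12*, a membrane metalloprotease, went from 73.5, 74.5 and 73.2 to 4.56, 5.22 and 8.15 CPM (-3.6), and the smooth muscle actin gene *Acta2* from 9.28, 10.6 and 10.2 to 0.169, 0.852 and 1.38 CPM (-3.54). In all 3 genes every EPRSTOPE library was below every mock library. *Tagln* (-2.196), *Cdh2*, *Loxl2* (-1.03) and thrombospondin 1 (*Thbs1*, -0.92) fell too. *Mmp3*, stromelysin, rose from 0.773, 1.05 and 0.487 to 102, 83.6 and 109 CPM (7.02), and *S100a4* (1.22), *Mmp14* (1.17), *Cd44* (1.03) and *Itgb3* (0.58) rose. *Pdgfra*, with no mock count, reached 1.01, 1.49 and 1.38 CPM and rose as well.

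Other markers of EMT, *Vim*, *Fn1*, *Fstl1* and *Zeb2*, did not pass the test in EPRSTOPE cells, unlike *Cdh1* and *Cdh2*. Vimentin averaged 2624 ± 105 CPM in mock and 3129.7 ± 113 CPM in EPRSTOPE libraries (SD, n = 3 each; log2 fold change 0.25). Fibronectin averaged 1036 ± 19.2 and 780.1 ± 88.05 CPM (-0.41), *Fstl1* 77.7 ± 3.28 and 85.9 ± 5.95 CPM (0.14, adjusted p = 0.29) and *Zeb2* 57.5 ± 5.605 and 43.97 ± 4.67 CPM (-0.39). The adjusted p of *Vim*, *Fn1* and *Zeb2* was under 0.01, so that it was the size of the change that fell short. In EPR libraries *Fn1* averaged 378 ± 20.1 CPM and *Fstl1* 1.21 ± 0.492 CPM, and EPRSTOPE exceeded EPR by 1.05 (adjusted p = 1.0e-06) and 6.15 (adjusted p = 5.0e-10) on the log2 scale. In the direct test 9 of the 20 mesenchymal markers were called higher in EPRSTOPE than in EPR cells and 1 was called lower. Of all genes 6.35% were called higher and 6.86% lower. Among the transcription factors of EMT, *Snai1* rose from 2.63, 2.103 and 1.54 to 5.24, 6.71 and 6.42 CPM (1.59) and *Sox9* rose (1.33). *Twist2* fell from 29.7, 25.7 and 24.7 to 15.4, 13.5 and 8.15 CPM (-1.12), and *Snai2* (-1.03) and *Prrx2* fell. The fall of *Twist2* did not pass with counts rebuilt from TPM (-0.985).

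Contractile and matrix genes fell in part. Of 9 tested genes of the contractile apparatus 6 fell and 1 rose, with a median of -0.79. Besides *Flnc*, *Acta2* and *Tagln* they were *Cnn2* (-1.45), *Smtn* (-0.79) and *Tpm1* (-0.66). The myosin light chain kinase gene *Mylk* rose from 6.65, 8.83 and 7.95 to 38.9, 38.5 and 36.7 CPM (2.26). Among 14 tested collagens 4 fell and 3 rose, and among the 12 with at least 1 CPM in mock 4 fell and 2 rose. Of the rises, those of *Col15a1* (1.70) and *Col5a3* (1.88) did not pass without EPRSTOPE library 210 (1.16 and 1.79). They did not pass without mock library 205 either (1.67 and 1.97). *Col7a1*, the collagen of anchoring fibrils, went from 205, 222 and 205 to 7.095, 6.497 and 6.54 CPM (-4.98), and *Col27a1* from 267, 254 and 261 to 28.4, 36.4 and 32.01 CPM (-3.01). Neither gene overlapped between the groups. *Col4a1* and *Col4a2*, of basement membranes, had log2 fold changes of -0.26 and 0.06 and did not pass.

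Mitosis genes fell as a whole. All 34 listed genes passed the filter and all 34 fell, with a median log2 fold change of -2.03 and a range from -2.77 to -1.33, against a median of -0.04 over all genes. Their summed level was 5959.8 to 6138 CPM in mock libraries and 1459.5 to 1574 CPM in EPRSTOPE libraries, which is 24.05 to 25.9% of the mock mean. *Mki67*, which encodes the proliferation marker Ki-67, stood at 1086, 1010.5 and 1026 CPM in mock and 198, 185 and 195 CPM in EPRSTOPE libraries (log2 fold change -2.44, SE 0.06, adjusted p = 1.7e-11). The groups were separated by a wide gap, and the same held for every member of the list. *Ccnb1*, cyclin B1 that activates Cdk1 at entry to mitosis, went from 177, 177 and 166 to 38.5, 37.8 and 35.7 CPM (-2.22). *Kif11*, a spindle motor, had the largest fall of the list (-2.77) and *Cdc25b*, the phosphatase that activates Cdk1, the smallest (-1.33). The count did not rest on chromosome 19, where *Kif11* lies and many genes were lower, since 31 of 31 members outside chromosomes 14, 15 and 19 fell.

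EPR libraries held more of the mitosis genes than EPRSTOPE libraries. Their sum was 2892 to 2971 CPM, 47.7 to 48.95% of the mock mean, and in the direct test all 34 genes were lower in EPRSTOPE. The median log2 change from mock was -0.99 in EPR cells; both comparisons share the mock libraries. EPR RNA was lower in the EPRSTOPE than in the EPR libraries, as given above, and its part in this difference was not tested.

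Promoters of 4 mitosis genes are shown because these genes moved together, with the CCAAT box, which NF-Y binds, and TTTGAA, the core of the cell cycle homology region, in capitals on either strand (ATTGG and TTCAAA are their reverse complements, and a match of one motif can share at most 1 base with a match of the other). Each run holds the 250 bases before the RefSeq start, 5′ to 3′ on the strand of the gene, in GRCm38.p6.
Ccnb2 promoter (chr9:70421555-70421804, minus strand): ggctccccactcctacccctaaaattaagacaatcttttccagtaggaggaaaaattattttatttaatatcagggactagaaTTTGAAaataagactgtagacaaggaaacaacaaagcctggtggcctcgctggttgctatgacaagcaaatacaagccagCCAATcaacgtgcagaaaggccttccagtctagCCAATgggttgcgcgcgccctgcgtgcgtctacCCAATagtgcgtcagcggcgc
Cdk1 promoter (chr10:69352913-69353162, minus strand): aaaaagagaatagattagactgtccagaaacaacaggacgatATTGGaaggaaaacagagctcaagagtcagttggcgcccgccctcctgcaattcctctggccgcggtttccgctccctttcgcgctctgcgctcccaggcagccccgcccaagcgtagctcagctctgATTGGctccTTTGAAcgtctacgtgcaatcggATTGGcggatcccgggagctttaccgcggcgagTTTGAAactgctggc
Mki67 promoter (chr7:135716380-135716629, minus strand): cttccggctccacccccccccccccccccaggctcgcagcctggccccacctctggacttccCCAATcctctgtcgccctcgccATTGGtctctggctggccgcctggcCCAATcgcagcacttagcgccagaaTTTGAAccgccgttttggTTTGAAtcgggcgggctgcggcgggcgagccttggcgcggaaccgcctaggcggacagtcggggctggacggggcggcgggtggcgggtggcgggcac
Plk1 promoter (chr7:122159185-122159434, plus strand): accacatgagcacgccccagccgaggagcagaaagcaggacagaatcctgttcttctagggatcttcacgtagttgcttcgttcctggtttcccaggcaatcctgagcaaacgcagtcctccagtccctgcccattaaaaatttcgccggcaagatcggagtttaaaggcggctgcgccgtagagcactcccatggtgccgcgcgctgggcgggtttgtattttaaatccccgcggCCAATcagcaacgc
The *Ccnb2*, *Cdk1* and *Mki67* promoters each hold 3 CCAAT boxes, with 1, 2 and 2 TTTGAA matches, and that of *Plk1* holds 1 CCAAT box and no TTTGAA. Promoter entries were found for 28 of the 34 mitosis genes. Of their 29 promoters 22 hold CCAAT (75.9%) and 10 hold TTTGAA (34.5%). Over the 12694 promoters of all tested genes the shares are 35.7% and 11%, over all 32851 RefSeq promoters they are 33.8% and 16%, and over the 34 promoters of DNA replication genes 58.8% and 11.8%. For p53 target genes, of which 18 rose and none fell, they are 57.7% and 11.5% of 26 promoters. For acute-phase and complement genes, of which 14 rose and none fell, they are 18.2% and 18.2% of 11 promoters. Promoter entries were found for 29 of the 37 tested replication genes, 20 of the 28 p53 target genes and 9 of the 17 acute-phase and complement genes. Some genes have more than 1 promoter, and the counts of rises cover all tested genes of a list. A match is a description of the sequence, and binding was not measured. For these genes *Ccnb2* had 44.9, 55.3 and 45.3 CPM in mock and 9.29, 13.2 and 14 CPM in EPRSTOPE libraries, *Cdk1* 174, 189 and 179 and 67.1, 67.95 and 63.1 CPM and *Plk1* 62.2, 63.1 and 60.6 and 16.05, 16.6 and 13.9 CPM, all without overlap.

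DNA replication genes were lower in part. Of 37 tested, 16 fell and 2 rose, with a median of -0.41 and a summed level of 76.8 to 81.95% of the mock mean. The ribonucleotide reductase gene *Rrm2*, which supplies nucleotides, went from 287, 313 and 292 to 155, 147 and 140.1 CPM (-1.01) and the initiation factor gene *Mcm10* from 81.2, 82.03 and 73.7 to 40.2, 47.4 and 43.6 CPM (-0.85). The replication clamp gene *Pcna* stood at 225, 257 and 254 CPM in mock and 268, 246 and 225 CPM in EPRSTOPE libraries, which overlapped (0.00, adjusted p = 0.97). The 2 genes that rose both license origins of replication. *Cdc6* went from 49.7, 55.9 and 56.5 to 96.6, 91.8 and 81 CPM (0.73) and *Cdt1* from 51.5, 53 and 48.3 to 73.1, 74.6 and 84.4 CPM (0.60). With counts rebuilt from TPM 9 genes fell and 1 rose, and the rise of *Cdt1* did not pass (log2 fold change 0.448). The called direct differences from EPR had the opposite sign to those of the mitosis genes. In the direct test 23 of the 37 were called higher in EPRSTOPE than in EPR cells and none was called lower. The sum in EPR libraries was 49.7 to 51.1% of the mock mean.

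**Figure D3:**
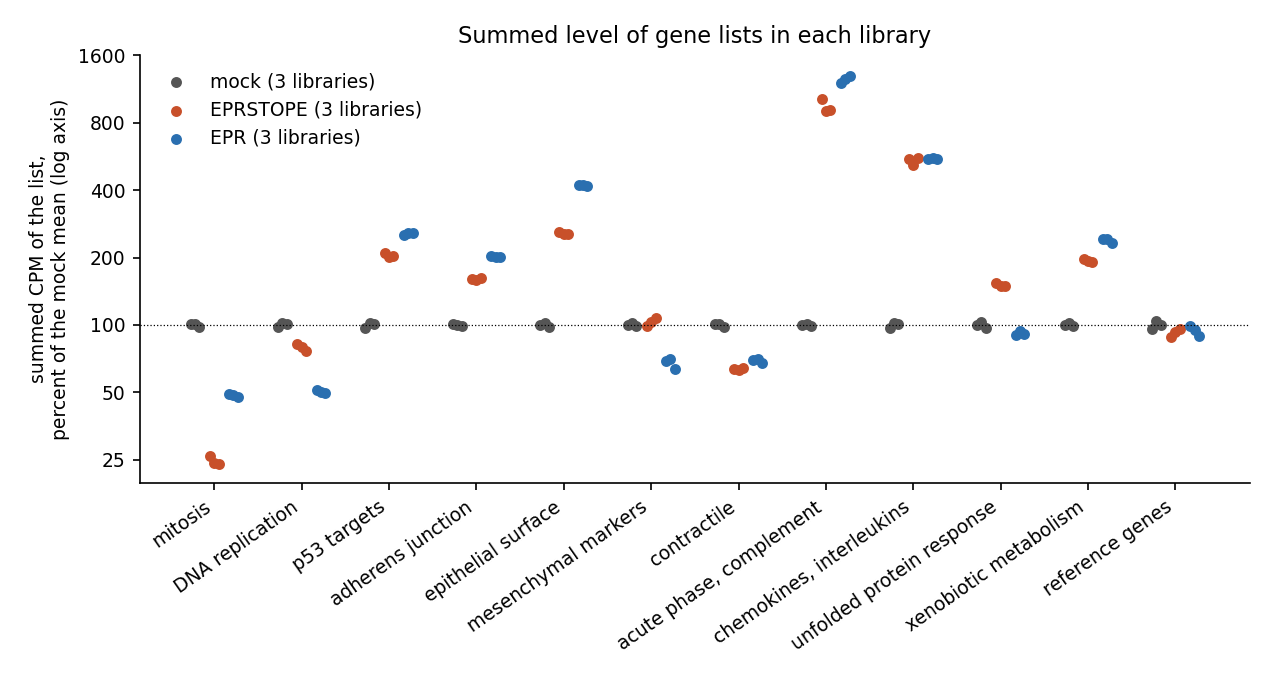
Summed CPM of 12 gene lists in each library, as percent of the mean of the 3 mock libraries (log axis); grey is mock, orange EPRSTOPE and blue EPR. Mitosis lies at 24.05 to 25.9% in EPRSTOPE and 47.7 to 48.95% in EPR libraries, and DNA replication at 76.8 to 81.95% and 49.7 to 51.1%. The unfolded protein response, here with integrated stress response genes, lies at 148.5 to 153.9% and 89.97 to 94.1%.

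Cyclin-dependent kinase inhibitors moved in opposite directions. *Cdkn1a*, the gene of p21, stood at 6.34, 7.99 and 7.46 CPM in mock and at 75.7, 84.5 and 78.6 CPM in EPRSTOPE libraries (ENSMUSG00000023067.13, GRCm38 chromosome 17, 29090976 to 29100727, plus strand). Every EPRSTOPE library was far above the mock libraries, by 3.44 on the log2 scale (standard error 0.09, adjusted p = 5.4e-11). EPR libraries averaged 96.6 ± 5.47 CPM, and the direct difference of -0.28 did not pass (adjusted p = 0.014). *Cdkn2a*, which encodes p16 and p19Arf, fell from 26.9, 35.2 and 37.6 to 4.56, 3.73 and 1.84 CPM (-3.34), and *Cdkn2d* (-2.23), *Cdkn2c* (-1.13) and *Cdkn1b* (-0.69) fell. *Cdkn2b*, a known TGF-β target, had a log2 fold change of 0.12 (adjusted p = 0.47). Among cyclins and their partners *Ccnd2* fell from 184, 168 and 172 to 80.1, 83.2 and 83.1 CPM (-1.09) and *Cdk4* fell (-0.51), while *Ccne1* rose from 11.8, 12.2 and 16.5 to 33.4, 40.5 and 40.04 CPM (1.48) and *Ccne2* (0.69), *E2f2* (2.78) and *Rb1* (0.97) rose. *Ccne1* and *Ccnd2* differed from EPR as well, by 1.503 and -2.02 on the log2 scale (adjusted p = 1.3e-05 and 1.5e-09).

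Most p53 target genes rose. Of 28 tested 18 rose and none fell (64.3% called, against 28% of all genes). The list had a median log2 fold change of 0.85 and a summed level of 200.1 to 209.9% of the mock mean. *Mdm2*, the ubiquitin ligase that limits p53, went from 74.7, 74.3 and 81.1 to 288, 273 and 303 CPM (1.904), *Ccng1* from 101, 98.8 and 103 to 536, 449.7 and 469 CPM (2.26) and *Trp53inp1* from 8.97, 7.26 and 6.25 to 107, 98.7 and 93.4 CPM (3.77). None of the 3 overlapped between the groups. The receptor gene *Eda2r* had the largest rise, from 0.155, 0.2103 and 0.162 to 73.99, 72.7 and 69.9 CPM (8.57), and the death receptor gene *Fas* rose by 2.47. Genes that arrest or protect cells (*Btg2* 2.25, *Sesn2* 1.86, *Zmat3* 1.76) and genes that promote death (*Bax* 0.78, *Pmaip1* 0.90, *Tnfrsf10b* 2.04) were among those that rose. *Sesn1* (-0.76), *Gadd45a* (-0.52) and *Plk2* (-0.47) had negative values that did not pass. Outside chromosomes 14, 15 and 19, 16 of 24 rose. In the direct test 7 were called lower in EPRSTOPE than in EPR cells and none was called higher. In the Bcl2 family 5 of 13 tested genes rose (38.5%, against 15.6% of all genes) and none fell. The 5 were *Bmf* (1.72), *Bcl2l2* (1.21), *Bax*, *Pmaip1* and *Bcl2l1* (0.73).

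Acute-phase and complement genes were examined next. Of 25 listed 17 passed the filter, 9 of them with under 1 CPM in mock, and 14 rose and none fell. Members with under 1 CPM in mock passed through the overexpressing cells, where they were higher; of the 8 others 7 rose and none fell. These genes are made mainly by liver and by inflamed epithelia. *Saa3*, serum amyloid A3, stood at 1.55, 0.841 and 1.22 CPM in mock and 178, 149 and 156 CPM in EPRSTOPE libraries (7.09), and *Lbp*, which binds lipopolysaccharide, at 3.71, 2.94 and 1.62 and 370.1, 388 and 378 CPM (7.18). The complement protease gene *C1s1* went from 0, 0.631 and 0 to 127, 130.4 and 116 CPM (9.105). None overlapped between the groups. *C3*, the central complement component, went from 1.702, 1.998 and 2.596 to 99.8, 99.8 and 89.5 CPM (5.46) and was lower than in EPR libraries, which averaged 383 ± 9.76 CPM (direct difference -1.99, adjusted p = 7.8e-09). *C1s1* was higher than in EPR libraries, which averaged 31.2 ± 1.03 CPM (1.99, adjusted p = 2.5e-06). Tested directly against EPR, 6 genes of the list were called higher and 7 were called lower in EPRSTOPE libraries. 

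Of 22 tested chemokine and interleukin genes 13 rose and 5 fell. Among the 15 with at least 1 CPM in mock 9 rose and 5 fell. Beside *Cxcl5*, *Ccl7* went from 6.34, 5.89 and 6.73 to 131, 141 and 139.8 CPM (4.43), *Cxcl1* from 73.2, 86.8 and 103 to 619, 559 and 619 CPM (2.77) and *Il6* from 0, 0 and 0.162 to 12.3, 12.1 and 12.2 CPM (173-fold with a 95% counting interval from 47.3 to 1432 from pooled counts). All 3 recruit or activate leukocytes, and none overlapped. Beside *Cxcl12*, *Il11* fell from 58.3, 51.1 and 43.4 to 1.69, 0.852 and 1.95 CPM (-5.104), and *Ccl9* (-1.67), *Il34* (-1.56) and *Il33* (-1.05) fell. The leukocyte marker *Cd14* rose (2.29), while *Ptprc* (CD45) did not pass the filter and *Adgre1* had no count. Of the interferon-stimulated genes 9 of 23 tested rose and 2 fell, and of the 15 with at least 1 CPM in mock 3 rose and 2 fell. The antigen presentation gene *H2-D1* went from 20.7, 21.1 and 16.1 to 81.6, 86.2 and 86.3 CPM (2.14) and *Ifi27* from 0.928, 1.89 and 2.19 to 22.5, 24.3 and 26.4 CPM (3.78). *Ifit2* fell from 21.2, 18.7 and 17.4 to 2.03, 2.24 and 1.49 CPM (-3.31). The signal transducer gene *Stat2* (-0.20) did not pass.

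**Figure D4:**
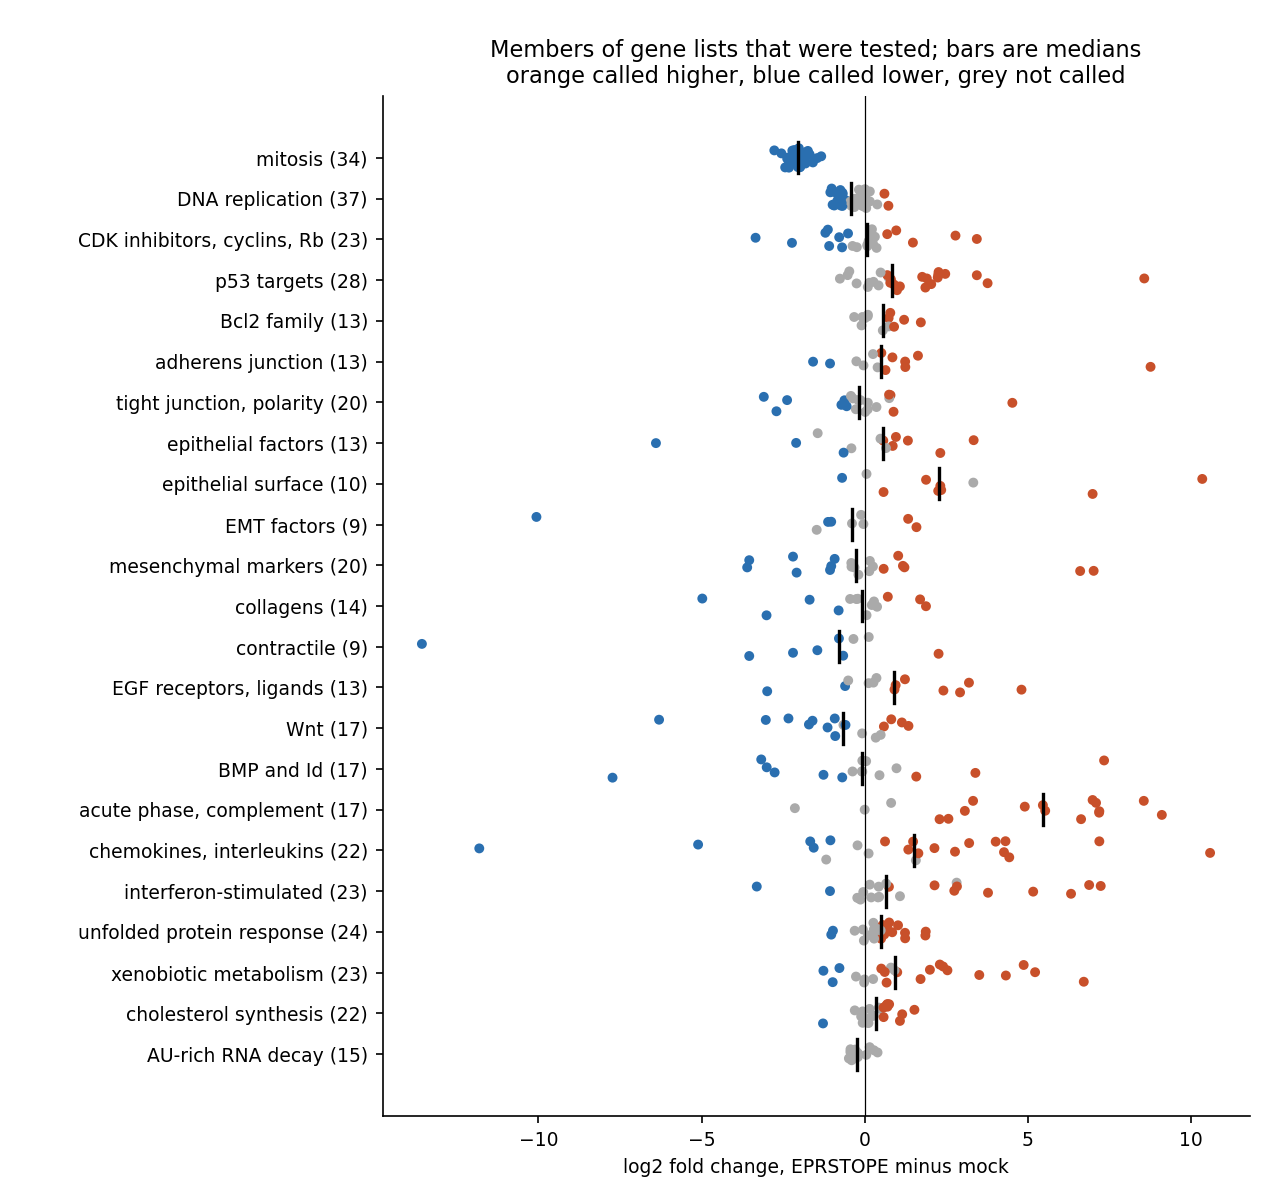
Log2 fold change of EPRSTOPE minus mock for the members of 23 gene lists that passed the filter (number tested in parentheses), 1 point per gene, with a bar at the median of each list. Orange points rose, blue points fell and grey points did not pass the test; all 34 mitosis genes lie between -2.77 and -1.33, and no point of AU-rich RNA decay is coloured.

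In the EGF pathway 7 of 13 tested genes rose, receptors and ligands among them, and 2 fell (69.2% called, against 28% of all genes). Of the 11 with at least 1 CPM in mock 5 rose and 2 fell. The receptor gene *Egfr* went from 103, 106 and 114 to 207, 196 and 209 CPM (0.91), its ligand gene *Areg* from 43.2, 43.96 and 44.1 to 324, 330.5 and 342 CPM (2.92) and *Ereg* from 37.9, 36.6 and 37.1 to 203, 180.1 and 211 CPM (2.41). The groups were apart in each. *Btc* (4.804), *Erbb3* (3.19), *Tgfa* (1.23) and the feedback inhibitor gene *Errfi1* (0.95) rose, and the neuregulin genes *Nrg1* (-0.60) and *Nrg2* (-2.99) fell.

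In the TGF-β list 5 of 25 tested genes rose and 3 fell (32%), near the 28% of all genes. *Inhbb*, an activin subunit, fell from 77.7, 94.96 and 83.2 to 0.845, 0.426 and 0.229 CPM (-7.496), with EPRSTOPE libraries near the floor. The receptor gene *Tgfbr1* rose (1.005), as did *Smad3*, a transducer of TGF-β, from 108, 109 and 111 to 156, 176 and 171 CPM (0.62; 0.68 and not past the test with counts rebuilt from TPM). The ligand genes *Tgfb1* (0.04) and *Tgfb2* (-0.18) did not pass, and *Tgfb3* fell (-2.37). BMP ligands showed opposite changes. *Bmp4* rose from 0.309, 0.421 and 0.162 to 46.1, 51.7 and 46.01 CPM (7.34), while *Bmp2* fell from 50.4, 55.7 and 50.2 to 5.74, 6.604 and 6.998 CPM (-3.003) and *Bmp7* from 10.7, 14.1 and 10.5 to 0.169, 0 and 0 CPM (282-fold with a 95% counting interval from 50.2 to 11165 from pooled counts). Each was separated between the groups. In the list 3 genes rose and 6 fell of 17 tested (52.9% called), and 1 rose and 6 fell of the 14 with at least 1 CPM in mock. The BMP target genes *Id2* (-1.26) and *Id3* (-0.69) were among those that fell.

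Wnt genes fell more often than they rose, 9 against 4 of 17 tested (76.5% called, against 28% of all genes), with a median of -0.65. The noncanonical ligand gene *Wnt5a* went from 6.96, 7.89 and 7.79 to 0, 0.213 and 0 CPM (lower by 91.7-fold with a 95% counting interval from 25.1 to 762 from pooled counts) and *Wnt4* from 23.1, 14.6 and 18.9 to 5.07, 2.34 and 4.02 CPM (-2.34). Both were lower in every EPRSTOPE library. The Frizzled receptor genes *Fzd8* (-3.03), *Fzd4* (-1.71), *Fzd1* (-1.14), *Fzd5* (-0.92) and *Fzd2* (-0.90) fell, and *Fzd7* (0.81) and *Lgr4* (1.34) rose. The target gene *Axin2* (-0.65, adjusted p = 0.40) did not pass. In the Notch list 4 of 10 rose (40%, against 15.6% of all genes), and of the 8 with at least 1 CPM in mock 3 rose. *Notch1* went from 4.18, 2.73 and 4.22 to 18.6, 22.4 and 24.6 CPM (2.56). With counts rebuilt from TPM its log2 fold change was 0.674 and did not pass the test. The FGF list had 2 rising and 2 falling of 9 (44.4% called), with *Fgfr3* lower (-2.41) and the MAP kinase phosphatase gene *Dusp6* higher (1.52). In the Hippo list, which holds YAP target genes and pathway members such as *Tead1*, 5 of 12 rose and 4 fell (75% called), with *Lats2* higher (1.03) and *Ctgf* lower (-0.58). *Tead1* fell (-0.72) but did not pass with counts rebuilt from TPM (-0.893). Of the immediate early genes 7 of 16 rose, including *Fos* (2.21), *Egr1* (1.399) and *Ier3* (1.63), and *Jun* fell (-0.67; -0.418 and not past the test with counts rebuilt from TPM).

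Of 24 genes of the unfolded protein and integrated stress responses 12 rose and 2 fell (58.3% called, against 28% of all genes). *Hspa5*, the chaperone BiP of the endoplasmic reticulum, stood at 1896, 1944 and 1818 CPM in mock and 3446, 3349.7 and 3369 CPM in EPRSTOPE libraries (0.84, standard error 0.05, adjusted p = 2.3e-08). *Creld2* went from 81.5, 92.96 and 83.9 to 191, 213 and 204 CPM (1.24) and the co-chaperone gene *Dnajc3* from 73.3, 64.3 and 65.1 to 254, 236 and 251 CPM (1.87). No library overlapped in these genes. *Hsp90b1* (0.67), *Pdia4* (0.75), *Herpud1* (1.24) and *Sesn2* (1.86), a stress response gene also named with the p53 targets, rose. *Chac1* (-1.02) and *Trib3* (-0.97), targets of the Atf4 branch, fell (*Trib3* not past the test with counts rebuilt from TPM, -0.601). *Ddit3* (-0.31) and *Xbp1* (-0.03) did not pass. This list differed from EPR in the opposite sense to the p53 list. In the direct test 12 of the 24 genes were called higher and 1 was called lower in EPRSTOPE libraries, and the others were not called. *Hspa5* averaged 1495 ± 74.2 CPM in EPR libraries (direct difference 1.18, adjusted p = 8.7e-09).

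Xenobiotic metabolism genes rose in 14 of 23 tested cases and fell in 3, and of the 19 with at least 1 CPM in mock 11 rose and 3 fell. Epoxide hydrolase (*Ephx1*) went from 4.18, 10.4 and 8.11 to 227, 228 and 234 CPM (4.87), *Aldh3a1* from 0.773, 1.26 and 1.704 to 146, 144 and 134 CPM (6.71) and the glutathione transferase gene *Gsta4* from 26.3, 35.2 and 27.5 to 157, 147 and 137 CPM (2.302). No overlap was seen. *Gstm1* (5.22), *Gstm2* (4.33) and *Gsta1* (3.51) rose as well, but these are near-identical family members among which reads may be split. Heme oxygenase (*Hmox1*) fell (-1.26). *Aldh1a1* fell from 49.7, 51.3 and 44.5 to 24.2, 28.3 and 21 CPM (-0.98) and averaged 281 ± 8.06 CPM in EPR libraries (direct difference -3.52, adjusted p = 7.7e-10). Of 22 cholesterol synthesis genes 9 rose and 1 fell (45.5% called, against 28% of all genes), with *Fdft1* at 1.52 and *Sqle* at 1.15. These 2 lie on chromosomes 14 and 15, and 6 of the 18 genes on other chromosomes than 14, 15 and 19 rose.

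Genes tied to EPR by the study were examined next. Of 47 genes whose proteins it lists as partners of EPRp, 15 rose and 4 fell (40.4% called, against 28% of all genes), with a median of 0.19. The rises included the adhesion receptor gene *Vcam1* (43.9, 42.1 and 39.3 and 273, 287 and 264 CPM, 2.72), the unconventional myosin gene *Myo7a* (7.48), *Lmo7* (2.06) and *Gsn* (1.19), and the falls *Myh10* (-2.04) and *Myo5b* (-1.67). *Vcam1* was high in every EPRSTOPE library, whereas EPR libraries averaged 49.5 ± 5.13 CPM (direct difference 2.47, adjusted p = 1.8e-09). None of 15 AU-rich RNA decay genes passed the size limit of the call; their log2 fold changes lay between -0.48 and 0.39 (median -0.23). The adjusted p was under 0.01 in 7 of them, and 12 did not overlap between the groups, against 56.4% of all genes. *Khsrp*, the decay factor that binds EPR, was at -0.24 (adjusted p = 0.008). Of 9 genes taken as those near EPR, 2 rose, *Tmem192* (0.84) and *Msmo1* (0.70; 0.649 and not past the test with counts rebuilt from TPM), and 3 fell, *Tma16* (-0.59), *Naf1* (-1.605) and *Psd3* (-0.65). *Naf1* and *Psd3* were taken for names in the study that matched no gene symbol, so that these matches are uncertain, and *Msmo1* is the current symbol of Sc4mol. Of 33 genes that the study names or measured in these cells 16 rose and 4 fell. Like the other lists this is no independent evidence of its direction, and the study itself chose part of it on these libraries. Of 10 reference genes, often used for normalization, *Gusb* (2.22) and *Ywhaz* (0.94) rose and none fell.

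Single genes differed widely between EPRSTOPE and EPR cells. *Slc9a2*, a sodium-proton exchanger gene, stood at 0, 0 and 0.162 CPM in mock and 0.507, 1.07 and 0.459 CPM in EPRSTOPE libraries and averaged 75.1 ± 2.21 CPM in EPR libraries (direct difference -6.71, adjusted p = 1.8e-09). The zinc transporter gene *Slc39a4* went from 0.773, 0.105 and 0 to 11.2, 9.27 and 8.49 CPM and averaged 138 ± 4.402 CPM with EPR (-3.85). Both genes were above mock in EPRSTOPE libraries and far below EPR, and the rise of *Slc9a2* from mock rests on 17 against 2 pooled counts (10.01-fold with a 95% counting interval from 2.38 to 89.4) and did not pass without EPRSTOPE library 210 or in a fit of the 6 mock and EPRSTOPE libraries alone (adjusted p = 0.023). *Pcdh19*, a protocadherin gene, rose from 28.5, 25.2 and 23.9 to 42.4, 47.3 and 57.5 CPM, while EPR libraries averaged 5.08 ± 0.477 CPM (3.26, adjusted p = 1.8e-08). *Armcx3*, with no count in EPRSTOPE libraries, averaged 32.4 ± 3.95 CPM in EPR libraries. *Serpinb6c* and *Cdhr5*, with no mock count, averaged 0.2 and 0.353 CPM in EPR libraries. *Fgfr2*, an FGF receptor gene, averaged 49.4 ± 7.09 CPM in mock, 41.2 ± 4.37 in EPRSTOPE and 10.9 ± 1.84 in EPR libraries, and *Anxa6*, the gene of a membrane-binding annexin, 306 ± 5.37, 231 ± 8.23 and 1.21 ± 0.313 CPM (SD, n = 3 each). Neither passed against mock (log2 fold changes -0.26 and -0.40). The adjusted p of *Fgfr2* was 0.13, whereas *Anxa6* (adjusted p = 0.0005) did not overlap and fell short by the size limit only. Both were higher in EPRSTOPE than in EPR cells, by 1.91 (adjusted p = 1.6e-06) and 7.58 (adjusted p = 2.3e-12). EPR RNA also differed between the groups, and the groups were separately transfected and selected populations. The absence of the peptide, the lower amount of RNA and other differences between the populations cannot be told apart here.

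Changed genes were not spread evenly over the chromosomes. On chromosome 14, 213 of 488 tested genes rose (43.6%), and on chromosome 15, 231 of 525 (44%), against 15.6% of all genes. On chromosome 19, 206 of 476 fell (43.3%), against 12.4%. The median log2 fold changes of these chromosomes were 0.58, 0.52 and -0.56, while those of the other autosomes and the X chromosome lay between -0.17 and 0.02. Without the genes of these 3 chromosomes 1925 genes rose and 1632 fell of 13881. *Krt8*, *Krt18*, *Dnajc22*, *C9* and *Slc39a4* are on chromosome 15 and *Psat1*, *Kif11* and *Malat1* on chromosome 19, so *Malat1* and *Tuba1a* (chromosome 15) moved against the median of their chromosomes. The part of these shifts in the changes of single genes was not tested.

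**Figure D5:**
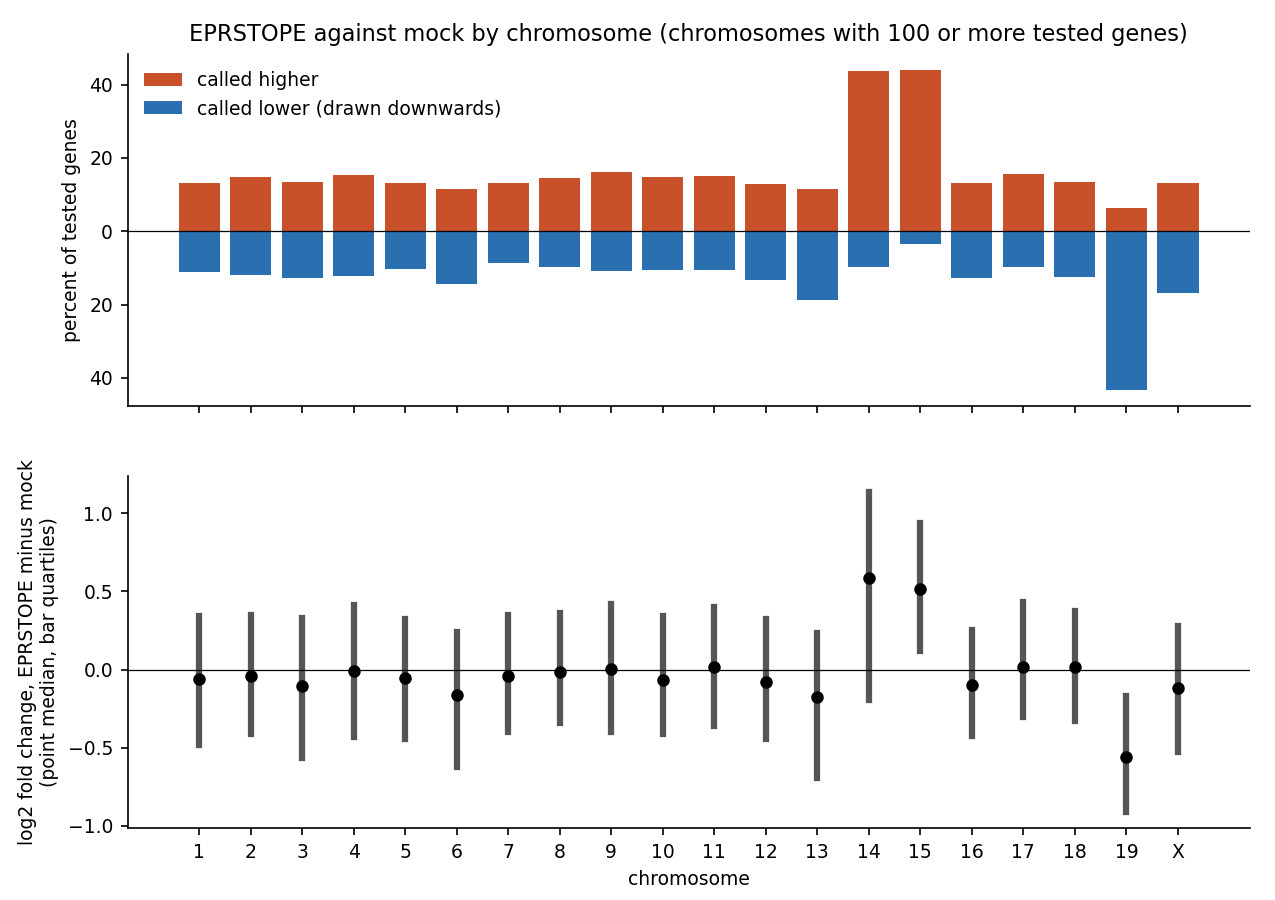
Upper panel, percent of the tested genes of each chromosome that rose (orange, upwards) or fell (blue, downwards) in EPRSTOPE against mock; lower panel, median log2 fold change (points) with quartiles (bars). Chromosomes 14 and 15 have medians of 0.58 and 0.52 and chromosome 19 one of -0.56, and the other chromosomes shown lie between -0.17 and 0.02.

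Among noncoding genes with at least 10 CPM in the higher group, the largest rises were those of *Gm6206*, from 0, 0.315 and 0.0811 to 15.4, 20.2 and 9.41 CPM (6.6), *4930461G14Rik*, from 1.08, 0.526 and 0.324 to 13.5, 12.7 and 12.5 CPM (4.45), and *Gm24924*, from 2.48, 0 and 0 to 29.9, 5.22 and 22.3 CPM (4.93). *Gm24924* varied most among the EPRSTOPE libraries of the 3, and it lost significance when any of mock libraries 204 and 205 or EPRSTOPE libraries 209 and 211 was left out, with log2 fold changes of 4.14 to 4.77. It did not pass in DESeq2 (adjusted p = 0.056), in limma voom (adjusted p = 0.046) or with counts rebuilt from TPM (adjusted p = 0.036). *Malat1* stood at 4696, 4055 and 4536 CPM in mock and 13587, 13205 and 12088 CPM in EPRSTOPE libraries. *Neat1*, its neighbour on chromosome 19, had a log2 fold change of 0.10 (adjusted p = 0.38).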

How the data were processed

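Total RNA of 9 libraries was sequenced by the authors as paired reads, on stranded total RNA libraries per the labels; labels and methods differ on the sequencer. The deposited tables hold, for 131100 transcripts of Gencode vM15 (GRCm38.p5), estimated counts and TPM values that the authors made with Kallisto 0.43.1, which shares reads among near-identical transcripts, so that values of close copies are uncertain. The deposited TPM values, normalized by the authors for length and depth, were used only to rebuild counts as an alternative.

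Here the estimated counts were summed per gene symbol (52459 symbols) and rounded. Groups came from the genotype labels. Genes reaching 1 CPM in 3 or more libraries (15370) entered the quasi-likelihood F test of edgeR 4.0.16 (R 4.3.3) with TMM factors and 1 factor of 3 levels over all 9 libraries. Calls needed a Benjamini-Hochberg adjusted p under 0.01 with a change over 0.5 on the log2 scale. Unless an alternative is named beside it, an adjusted p in the text comes from this fit, and EPRSTOPE was tested against EPR in it too. Totals ran from 5972457 to 11876435 counts. Alternatives were limma 3.58.1 (voom), DESeq2 1.42.0, other size factors and filters, counts rebuilt from TPM, transcripts, the 6 libraries alone and leaving out each library. On simulated counts edgeR recovered 197 of 200 genes changed by 1.5 on the log2 scale, with 3 false calls among 15370 genes tested. The simulated rises and falls were equal in number and lay in well-counted genes, with the same spread for every gene. As 28% of genes were called in the libraries, the simulation does not give the rate of false calls there.

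Genes were named by rules: the largest changes among protein-coding genes of at least 10 CPM, the changed genes of highest CPM, genes without a count in one group, noncoding genes, and members of 41 gene lists. Members and lists were chosen with earlier results of these data known. Of the proteins listed as EPRp partners, those whose symbols could not be matched with certainty were left out, and a few members of the lists are not reported here. Promoters came from RefSeq (GRCm38.p6), and the EPR transcript from Gencode M21.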

Additional observations from a re-analysis of the deposited data

How the results depend on the processing

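The number of genes that changed depended on the rule and the unit more than on the tool. Against 2399 higher and 1903 lower genes, limma voom gave 2370 and 1927, and DESeq2 gave 2472 and 1911, with the adjusted p of 9 genes not given. Without a filter 15.2% of genes were called. Counts rebuilt from TPM gave 1200 lower genes, a log2 limit of 1 gave 1300 higher and 1073 lower (15.4%), and transcripts gave 1411 and 696 of 45412 (4.64%). Between scalings the share of higher genes among those called ran from 53.3 to 60.9%, against 55.8% in the main analysis. Leaving out 1 library gave 2217 to 2314 higher and 1683 to 1810 lower genes (25.6 to 26.8%). The log2 fold change of EPR RNA was 5.14 to 8.20 without 1 library, the highest without mock library 205, which held the only mock counts, and 5.49 to 5.90 under the other alternatives; it was not tested at 10 or more counts in every library. Lists with members of low counts in any group, mock or overexpressing, lost called genes when at least 10 counts in every library were asked for. By that filter 5 acute phase, 8 chemokine, 2 interferon, 9 xenobiotic and 2 keratin genes rose, and 4 mesenchymal, 3 contractile and 5 Wnt genes fell. Of 173 named genes that changed, 148 kept the call in every alternative run. With counts rebuilt from TPM 3 named genes that had not passed had the opposite sign, *Fstl1* (-0.0995), *Myh9* (0.00372) and *Khsrp* (0.0415); the cause was not tested. Without chromosomes 14, 15 and 19, an alternative chosen after seeing the data, 1925 genes rose and 1632 fell. No paired analysis was possible because the labels give each library a number of its own. Depth limits what can be said of genes near 3 counts per library, and EPR RNA in mock is among them.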
